A study of Mus musculus with 30 samples.

Results

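The genes of antigen presentation by major histocompatibility complex (MHC) class II were followed in 2 mouse colon carcinoma models, CT-26 and Colon 26, in cultured cells and in tumors of 3 sizes. The 7 genes, of 53431 in the deposited table, were taken by name and by no cutoff on a measured value, though earlier results of these data were known. H2-Aa and H2-Ab1 encode the alpha and beta chains of the mouse class II molecule I-A, and H2-Eb1 encodes the beta chain of I-E. Cd74 encodes the invariant chain, H2-DMa and H2-DMb1 encode the chains of the peptide editor H2-DM, and Ciita encodes the class II transactivator. The study compared the 2 cell lines because they are close in genetic background but respond differently to anti-PD-1 antibody. RNA-seq was done on 3 cultures of each cell line and on 4 tumors of each model at each of 100, 400 and 800 mm3, giving 30 libraries in 8 groups. All tumors grew under the skin of the right flank from implanted cells of the line concerned, the hosts were female BALB/c mice, and the ages of the mice are not given in the sources used here. No sample is labelled with an antibody although the treatment text describes antibody dosing, and all tumors were treated here as coming from undosed mice.

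Class II molecules carry peptides from endocytosed proteins to the cell surface, where CD4+ T cells read them. The alpha and beta chains assemble on the invariant chain, which blocks the peptide groove and leads the complex into the endocytic route, where cathepsins degrade it and H2-DM exchanges the remaining fragment for antigenic peptides. Dendritic cells and B cells express the pathway constantly, whereas macrophages and many other cells, some carcinoma cells among them, raise it after interferon-gamma has induced Ciita. CIITA does not bind DNA itself and is recruited by the regulatory factor X (RFX) complex and nuclear factor Y (NF-Y), which sit on the X and Y boxes shared by class II promoters.

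H2-Aa, H2-Ab1, H2-Eb1, H2-DMa and H2-DMb1 lie close together on chromosome 17 of GRCm38, in the mouse MHC. H2-DMa spans 34119541 to 34139101 on the plus strand, H2-DMb1 34153072 to 34160230 on the plus strand, and H2-Ab1 34257689 to 34269419 on the plus strand. H2-Aa spans 34282744 to 34287823 on the minus strand and H2-Eb1 34305867 to 34316674 on the plus strand. Cd74 and Ciita lie on other chromosomes. All 7 are annotated as protein-coding.

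Because the members were found to rise and fall together, the stretch before the start site that holds the shared boxes is shown for 3 of them. Promoters of 4 of the 7 members (H2-Aa, H2-Eb1, H2-DMa and H2-DMb1) were matched in the RefSeq table of GRCm38.p6. H2-Ab1, Cd74 and Ciita are only named. Each sequence below is 90 bases, from 120 to 31 bases before the start, 5′ to 3′ on the strand of the gene, and capitals mark matches to the X box core AGNNACNNATG and to the Y box CCAAT, which reads ATTGG on the other strand. The windows are chr17:34287854-34287943 for H2-Aa, chr17:34305747-34305836 for H2-Eb1 and chr17:34153071-34153160 for H2-DMb1. The starts are those of the RefSeq table. For H2-DMb1 this start lies inside the gene span given above, so nearly all of its window falls within that span.
H2-Aa: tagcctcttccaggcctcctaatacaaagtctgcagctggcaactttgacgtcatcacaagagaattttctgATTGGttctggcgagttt
H2-Eb1: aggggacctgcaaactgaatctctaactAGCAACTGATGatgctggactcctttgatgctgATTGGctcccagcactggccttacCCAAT
H2-DMb1: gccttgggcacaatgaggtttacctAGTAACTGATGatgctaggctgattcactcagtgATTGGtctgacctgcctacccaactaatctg
The X core was found 92 to 82 bases before the start of H2-Eb1 and 95 to 85 bases before that of H2-DMb1, in both followed by an inverted Y box, 59 to 55 and 61 to 57 bases before the start. H2-Aa held the inverted Y box 48 to 44 bases before its start, and the X core was not matched in its window of 250 bases before to 50 after the start. Of 2 start sites of H2-DMa, one held neither motif and the other an inverted Y box 198 to 194 bases before it. Both strands were searched and the 2 motifs do not overlap. Among 32851 promoters of this length, 3.09% held the X core, 37.4% the Y box and 1.42% both. These matches are letters in a window and not binding sites.

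Depth was 21384730 to 39722586 estimated counts on genes per library, with a median of 28527424. Levels are given as FPKM, fragments scaled by transcript length and library size, as deposited, so that genes can be compared per length. The 42 pairs of libraries of 1 group differed by 3.05 to 82.8 times the variance that counting alone gives, so each library was used as 1 replicate, though nothing in the labels says that the cultures of a line were grown separately, and p-values between them may measure technical spread only. The library numbers in the titles of CT-26 cultures, Colon 26 cultures and tumors belong to separate series. Among the tumors, each group of model and size holds its own run of consecutive numbers, with all CT-26 tumors before all Colon 26 tumors. The order of these numbers and the group therefore cannot be told apart in any comparison, between tumor groups or with cultures. Whether the numbers follow the order of processing is not given in the labels. BALB/c mice carry another MHC haplotype than the C57BL/6 reference genome, and reads that differ from the reference may be lost on the H2 genes. Whether reads were lost in this way was not tested. In a tumor, fewer cells that express a gene and less RNA per cell cannot be told apart.

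The cultured cell lines differed in class II transcripts, at low levels. CT-26 cultures held the invariant chain and traces of the class II chains, and Colon 26 cultures held next to none of these but more of the editor chain H2-DMa. Cd74 was at 12.94, 12.77 and 12.98 FPKM in the 3 CT-26 cultures (343 to 439 counts) and at 0.160, 0.229 and 0.221 FPKM in the 3 Colon 26 cultures (7 to 11 counts). H2-Aa was at 0.702, 0.869 and 0.552 FPKM in CT-26 cultures (15 to 23 counts), and no count was found in any Colon 26 culture. H2-Ab1 was at 0.425, 0.445 and 0.379 FPKM in CT-26 cultures (11 to 15 counts), and again no count was found in Colon 26. For these 3 genes every CT-26 culture lay above every Colon 26 culture. H2-Eb1 was at 0.592, 0.819 and 0.458 FPKM against 0.0469, 0.107 and 0.191 FPKM, without overlap. H2-DMa went the other way, with 1.90, 1.75 and 2.14 FPKM in CT-26 and 4.34, 5.20 and 4.97 FPKM in Colon 26. H2-DMb1, its partner chain, had at most 9 counts in any culture, and Ciita at most 4. Neither passed the filter on low counts, so the 2 were not tested.

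The lines were compared by the quasi-likelihood test of edgeR, with Benjamini-Hochberg adjustment over all genes tested. A gene was called where the adjusted p was 0.1 or lower and the log2 fold change, given as Colon 26 over CT-26, was 1 or more in either direction. In culture all 5 members tested were called, against 22.9% of the 14334 genes tested, 1 higher and 4 lower in Colon 26. Cd74 was 62.95-fold lower in Colon 26 (log2 fold change -5.98 ± 0.13 SE, adjusted p = 9.63e-16). H2-Aa was at least 8.82-fold lower and H2-Ab1 at least 5.93-fold lower, both as bounds against a floor of 3 counts per library (adjusted p = 3.24e-07 and 1.95e-06). H2-Eb1 was lower by a log2 fold change of -2.41 ± 0.43 (SE, adjusted p = 8.47e-05), on 2 to 27 counts. H2-DMa was higher by 1.31 ± 0.11 (SE, adjusted p = 2.38e-08). The median log2 fold change of the 5 was -5.98, or -2.57 with H2-Aa and H2-Ab1 at their bounds, and that of all genes tested was 0.01. The 5 genes were also those whose FPKM did not overlap between the lines, as did not 80% of all genes tested, so non-overlap says little here. In a fit of all 30 libraries together, H2-Ab1 and H2-Eb1 were no longer called (adjusted p = 0.159 and 0.287), while Cd74, H2-Aa and H2-DMa were.

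Exons of H2-DMa overlap those of Brd2, a ubiquitous bromodomain gene on the other strand, over 360 bases, and how the authors' counting handled strand is not given in the sources used here. Brd2 was at 79.0 to 81.6 FPKM in CT-26 and 112 to 113 FPKM in Colon 26 cultures, so reads of Brd2 within the overlap cannot be told apart from low H2-DMa. Exons of Ciita likewise overlap those of Dexi on the other strand, over 329 bases. The part of Dexi reads in the Ciita values of cultures and tumors was not tested. The cultured cells also held traces of macrophage transcripts. The macrophage list of 8 genes summed to 51.0 to 54.8 FPKM in CT-26 cultures and 4.36 to 5.51 FPKM in Colon 26 cultures. Most of the CT-26 sum was Cd68, a lysosomal protein, at a mean of 49.6 FPKM. The leukocyte gene Ptprc (CD45) was at 0.0203 to 0.0452 FPKM in CT-26 cultures and at most at 0.0164 FPKM in Colon 26 cultures.

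The culture level was therefore set against the level in 100 mm3 tumors of the same model, for members and for genes of macrophages. Cd74 in CT-26 cultures was 3.29% of its tumor level, and H2-Aa, H2-Ab1 and H2-Eb1 were 0.541, 0.362 and 0.60% of theirs. C1qa, C1qb and C1qc, the complement genes that macrophages express, were at 0.132, 0.180 and 0.173%, Csf1r at 0.209%, Adgre1 at 0.111% and Ptprc at 0.158%. Of the other genes of the macrophage list, Mrc1 was at 0.183%, but Mertk was at 34.1% and Cd68 at 65.1%. The class II genes thus held a larger share of their tumor level in CT-26 cultures than 6 of the 8 macrophage genes and a far smaller one than Mertk and Cd68. In Colon 26 cultures Cd74 was 0.0399% and H2-Eb1 0.0826% of the tumor level, beside 0.0367% for Ptprc, 0.0155% for Csf1r and 0.00674% for C1qa. C1qb was at 0.0104%, C1qc at 0.0107% and Adgre1 at 0%. Mrc1 at 0.216%, Cd68 at 3.51% and Mertk at 36.2% lay above both Cd74 and H2-Eb1. Of the other members, H2-Aa and H2-Ab1 were at 0%, H2-DMb1 at 0.297%, Ciita at 0.313% and H2-DMa at 13.7%. The part of residual leukocyte RNA in the culture values was not tested. The ratio of Cd74 to H2-Ab1 (FPKM) also set CT-26 cultures apart, at 28.7 to 34.3 in the 3 cultures and 3.03 to 4.41 in the 24 tumors of both models.

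**Figure D1:**
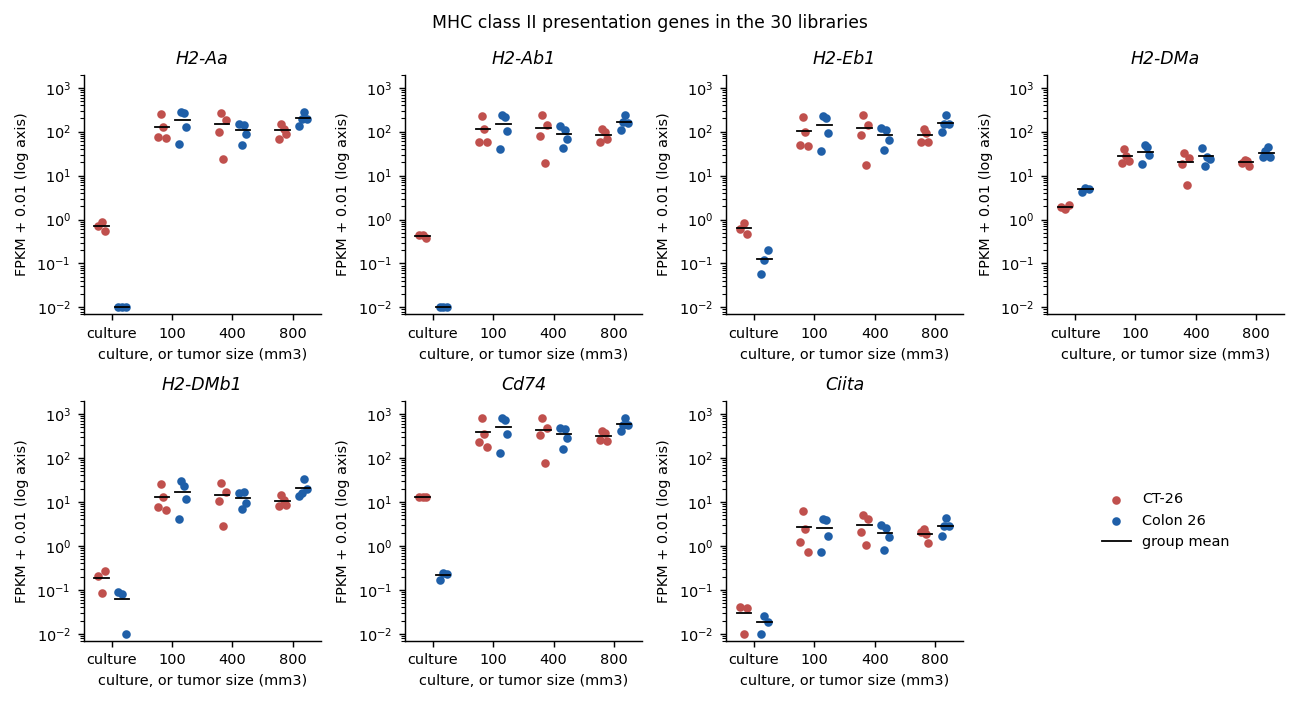
Levels of the 7 class II genes in all 30 libraries, as FPKM + 0.01 on a log axis, by group, with 1 point per library. Every tumor lies above every culture for each gene, CT-26 cultures lie above Colon 26 cultures for Cd74 (12.77 to 12.98 against 0.160 to 0.229 FPKM), and the tumor groups of the models overlap for nearly all genes.

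All 7 members were higher in tumors than in culture, in both models. Among the 7, Cd74 was the highest in FPKM in every tumor, from 76.0 to 831 FPKM. Next came the class II chains, H2-Aa at 23.95 to 281, H2-Ab1 at 19.2 to 236 and H2-Eb1 at 17.8 to 242 FPKM. The editor chains were lower, H2-DMa at 6.25 to 48.7 and H2-DMb1 at 2.87 to 33.1 FPKM. Ciita was lowest at 0.707 to 6.25 FPKM. In 100 mm3 tumors over culture, 7 of 7 members were called with a positive log2 fold change in CT-26, against 22.2% of all genes tested, and 7 of 7 in Colon 26, against 20.8%. The median log2 fold change was 7.03 in CT-26 and 10.21 in Colon 26, beside 0.06 and 0.05 over all genes tested. Which cells of the tumor made these transcripts cannot be read from bulk RNA.

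In CT-26 the log2 fold changes of tumor over culture ran from 3.84 ± 0.31 (SE) for H2-DMa to 8.10 ± 0.78 (SE) for H2-Ab1, with adjusted p from 1.35e-05 to 0.000696. Cd74 rose by 4.96 ± 0.60 (SE), the smallest change but that of H2-DMa. In Colon 26 the rise of Cd74 was 11.32 ± 1.02 (SE, adjusted p = 9.39e-06) and that of H2-DMa 2.89 ± 0.34 (SE). H2-Aa rose at least 2077-fold, H2-Ab1 at least 2090-fold and Ciita at least 164-fold in Colon 26, against the floor of 3 counts per library, since the cultures had no more counts than that. H2-Eb1 and H2-DMb1 rose by 10.21 ± 1.06 and 8.38 ± 1.03 (SE) in that model.

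The change of the model difference from culture to 100 mm3 tumors was tested as an interaction, in which 17.6% of all genes were called. Cd74 was the only member called by edgeR, with an interaction of 6.31 ± 1.22 (SE, adjusted p = 0.000835). It was 62.95-fold lower in Colon 26 cultures, and the models' 100 mm3 tumors overlapped. For H2-Aa and H2-Ab1 the interaction was 7.94 ± 3.85 and 7.28 ± 4.47 (SE, adjusted p = 0.119 and 0.216), fitted values that rest on cultures without a count. H2-DMa had -0.99 ± 0.49 (SE, adjusted p = 0.122). DESeq2 called 4 of the 7, adding H2-Aa, H2-Ab1 and H2-Eb1 to Cd74, and the share of all genes it called is not given here.

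Between the models' tumors of one size, no member was called. For 100 mm3 tumors, H2-Aa was at 74.9, 249, 129 and 71.1 FPKM in CT-26 and at 52.0, 278, 268 and 125 FPKM in Colon 26. For 400 mm3 tumors it was at 101, 273, 23.95 and 185 FPKM in CT-26 and at 150.02, 49.2, 142 and 86.9 FPKM in Colon 26. Within these 4 groups the tumors spread 3.05- to 11.4-fold, and the groups overlapped. Cd74 showed the same spread, at 226, 808, 355 and 181 FPKM in CT-26 and 129, 803, 744 and 361 FPKM in Colon 26 at 100 mm3. At 400 mm3 it was at 327, 811, 76.0 and 494 FPKM in CT-26 and 485, 161, 449 and 280.1 FPKM in Colon 26. The third CT-26 tumor of 400 mm3 held the lowest level of 6 of the 7 members among all 24 tumors, all but Ciita, and its macrophage list sum was also the lowest, at 178 FPKM. Ciita, which switches the pathway on, was at 1.20, 6.25, 2.38 and 0.713 FPKM in CT-26 and 0.707, 4.10, 3.81 and 1.65 FPKM in Colon 26 at 100 mm3. At this size the 4 tumors of each model stood in the same order for Ciita, Cd74 and H2-Aa.

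At 100 mm3, 0 of 7 members were called by edgeR, against 13.2% of all genes, 0 had an unadjusted p under 0.05, and DESeq2 called 0. Their log2 fold changes of Colon 26 over CT-26 ran from -0.09 for Ciita to 0.44 for H2-Aa, with a median of 0.34 and SEs of 0.34 to 0.70. At 400 mm3, 0 of 7 were called by edgeR, against 14.3% of all genes, 0 had an unadjusted p under 0.05, and DESeq2 called 0. Log2 fold changes there ran from -0.66 for Ciita to 0.37 for H2-DMa, with a median of -0.46 and SEs of 0.43 to 0.65. The median over all genes was at most 0.03 from 0 at both sizes. No member had FPKM that did not overlap between the models, beside 47.3% of all genes at 100 mm3 and 44.0% at 400 mm3. With SEs of this size a difference near the called fold change could be missed at these 2 sizes.

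At 800 mm3 the members were more even within groups and leaned to Colon 26. Cd74 was at 257, 417, 364 and 241 FPKM in CT-26 and at 416, 555, 831 and 555 FPKM in Colon 26. H2-Ab1 was at 58.1, 118, 96.2 and 69.6 FPKM in CT-26 and at 110.3, 164, 234 and 155 FPKM in Colon 26. For both genes the highest CT-26 tumor passed the lowest Colon 26 tumor, by little. H2-DMa was at 19.7, 22.6, 21.5 and 16.3 FPKM in CT-26 and at 26.4, 35.9, 44.0 and 27.0 FPKM in Colon 26, the only member without overlap, against 48.4% of all genes. By edgeR 0 of 7 were called, against 14.1% of all genes, because no log2 fold change reached 1. All members but Ciita, 6 of 7, had an adjusted p of at most 0.1, and the same number an unadjusted p under 0.05 by edgeR and by DESeq2, which called 0. Their log2 fold changes were 0.66 ± 0.16 (SE, adjusted p = 0.0053) for H2-DMa and 0.81 to 0.88 for Cd74, H2-Aa, H2-Ab1, H2-Eb1 and H2-DMb1. Ciita was at 0.52 ± 0.28 (SE, adjusted p = 0.15). The median was 0.81, beside -0.01 over all genes tested. An unadjusted p under 0.05 by edgeR was also found for 20 of 35 other pathway genes tested at this size. The share of all genes under that limit, or under an adjusted p of 0.1 alone, is not given here. Calls at this size turned on single tumors. Without the second CT-26 tumor 4 members were called (H2-Aa, H2-Ab1, H2-Eb1 and H2-DMb1, log2 fold changes 1.03 to 1.09), and without the first Colon 26 tumor 3 were called (H2-Ab1, H2-Eb1 and H2-DMb1).

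**Figure D2:**
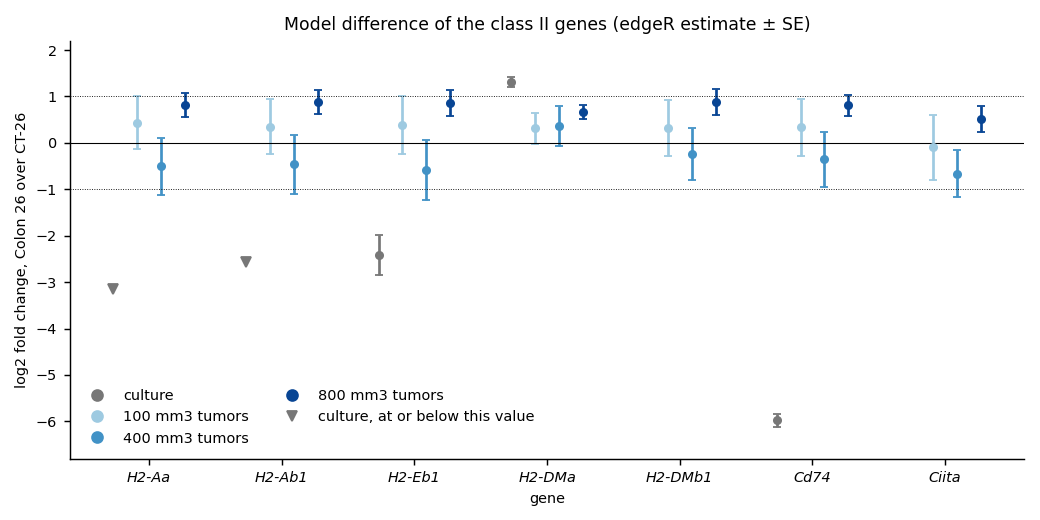
Log2 fold change of Colon 26 over CT-26 for the 7 genes, with SE, in culture and in tumors of 100, 400 and 800 mm3. Triangles mark the bounds of H2-Aa (-3.14) and H2-Ab1 (-2.57) in culture, dotted lines mark ±1, and the tumor values lie between -0.66 and 0.88 while Cd74 in culture lies at -5.98.

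Tumor growth was not accompanied by a called change of any member. From 100 to 400 mm3, 0 of 7 were called by edgeR in CT-26, against 0% of all genes, and 0 of 7 in Colon 26, against 0.0131%. From 100 to 800 mm3, 0 of 7 were called in CT-26, against 0%, and 0 of 7 in Colon 26, against 1.33%. Log2 fold changes ran from -0.46 to 0.24 in CT-26 and from -0.76 to 0.25 in Colon 26. The model difference at 400 and at 800 mm3 against that at 100 mm3 was called for 0 of 7 members each time, beside 0% and 0.0308% of all genes. In these 6 comparisons 0 members had an unadjusted p under 0.05, and DESeq2 called 0. So the lean to Colon 26 at 800 mm3 was not shown to differ from that at 100 mm3, where Cd74 had an interaction of 0.46 ± 0.70 (SE, adjusted p = 0.835). Few genes of any kind were called with tumor size, so the absence of members is no result about them.

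The summed level of the 7 genes ordered the groups as follows. The sums, in CPM (counts scaled to library size), were 8.09 ± 0.74 (SD, n = 3) in Colon 26 cultures and 21.2 ± 0.54 (SD, n = 3) in CT-26 cultures. CT-26 tumors of 800 mm3 followed with 782 ± 238, Colon 26 tumors of 400 mm3 with 800.3 ± 339 and CT-26 tumors of 100 mm3 with 965 ± 689 (SD, n = 4 each). CT-26 tumors of 400 mm3 had 1062 ± 780, Colon 26 tumors of 100 mm3 1225 ± 761 and Colon 26 tumors of 800 mm3 1389 ± 388 (SD, n = 4 each). The cultures lay apart from each other and from all tumors, and neighboring tumor groups overlapped.

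Within a group the class II genes varied much from tumor to tumor, whereas the proportions of H2-Aa, H2-Eb1 and Cd74 to H2-Ab1 varied little. The within-group SD over the 24 tumors, on the log2 FPKM scale, was 0.95 for H2-Aa, 0.97 for H2-Ab1, 1.02 for H2-Eb1, 0.95 for Cd74, 0.92 for H2-DMb1, 0.91 for Ciita and 0.61 for H2-DMa. Ptprc had an SD of 0.48, and the 8 genes of the macrophage list, taken singly, had SDs from 0.32 for Mertk to 0.59 for Adgre1, close below that of H2-DMa. The SDs were not tested against each other. A wide spread was not particular to class II. Over the 24 tumors the genes of the T cell list ranged more, from 13.9-fold for Cd3d to 51.5-fold for Cd8a. The members ranged from 7.80-fold for H2-DMa to 13.6-fold for H2-Eb1. These ranges include differences between groups. The log2 ratio of H2-Aa to H2-Ab1, the partner chains of I-A, had a within-group SD of 0.07, and those of H2-Eb1 and Cd74 to H2-Ab1 had 0.08 and 0.12. In FPKM, H2-Aa was 1.09 to 1.29 times H2-Ab1 (median 1.21) in 24 of 24 tumors, although H2-Aa itself ranged 11.7-fold. H2-Eb1 was 0.807 to 1.02 times H2-Ab1. The editor pair was looser, with H2-DMa at 1.21 to 4.38 times H2-DMb1 and a within-group SD of 0.41. H2-DMa to H2-Aa ran from 0.118 to 0.345 with an SD of 0.40, and Ciita to H2-Ab1 from 0.0120 to 0.0548 with an SD of 0.38. These 3 SDs are not far below that of Ptprc itself. None of 18 comparisons of these 6 ratios between the models, by two-sided exact permutation tests at each size, passed an adjusted p of 0.1 (0.386 to 0.914 over the 18 tests, the smallest p of 4 against 4 tumors being 0.029).

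**Figure D3:**
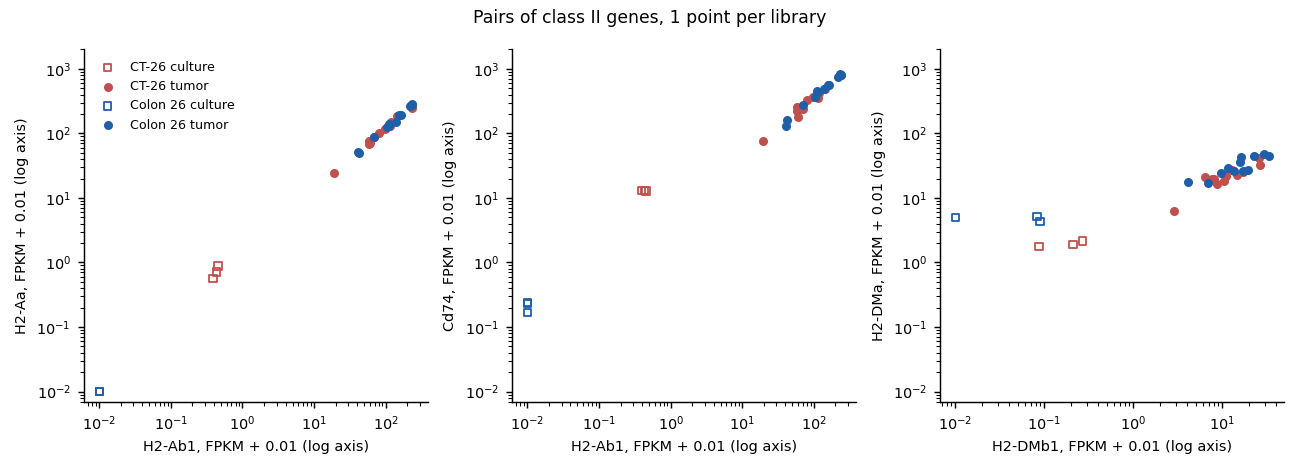
Pairs of class II genes by library, in FPKM + 0.01 on log axes: H2-Ab1 with H2-Aa, H2-Ab1 with Cd74, and H2-DMb1 with H2-DMa, with cultures as open squares. The 24 tumors fall on narrow lines for the first 2 pairs (H2-Aa at 1.09 to 1.29 and Cd74 at 3.03 to 4.41 times H2-Ab1) and spread more for the third (1.21 to 4.38), and CT-26 cultures lie off the tumor line for Cd74.

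Correlations of the members were computed over the 24 tumors after the mean of each group was subtracted, on the log2 scale. Over all 21 pairs Pearson's r ran from 0.883 to 0.998 and Spearman's rho from 0.901 to 0.997, and r from 0.887 to 0.997 without the 2 tumors farthest from the median. Two-sided permutation tests gave an adjusted p of 1.05e-05 to 2e-05 over the 21 pairs, with unadjusted values from 1e-05, the smallest that 100000 permutations can give. All genes of a tumor share its library, its depth and its content of immune cells. As a description, the members correlated at 0.831 to 0.880 with Ptprc, 0.591 to 0.847 with the macrophage list and 0.782 to 0.912 with the T cell list. They correlated at 0.812 to 0.902 with Ifng, at -0.032 to 0.161 with the fibroblast list and at -0.217 to -0.004 with the epithelial or carcinoma list. The part of cell content in the spread of the members was not tested.

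Markers of professional antigen-presenting cells were present in all tumors. The macrophage list summed to 178 to 1492 FPKM in tumors, and the dendritic cell list, which includes Zbtb46, Xcr1 and Clec9a, to 5.07 to 13.9 FPKM. The dendritic cell list also summed to 1.37 to 1.59 FPKM in CT-26 cultures and 3.77 to 4.30 FPKM in Colon 26 cultures, most of it from Zbtb46 (means of 0.930 and 3.6 FPKM), so its level is not a measure of dendritic cells alone. The B cell list stayed at 0.327 to 2.02 FPKM, with Ms4a1 (CD20), a defining marker, at most at 0.0725 FPKM and at 0 in some tumors. The mean log2 CPM of Ptprc differed between the models by -0.07, -0.16 and 0.03 at 100, 400 and 800 mm3. When each member was expressed relative to Ptprc (difference of log2 CPM), 6 of 21 comparisons of the models passed an adjusted p of 0.1, all at 800 mm3. For Cd74 at this size the difference to Ptprc was 3.15 ± 0.17 in Colon 26 and 2.36 ± 0.48 in CT-26 (SD, n = 4 each), a gap of 0.79 with an exact two-sided permutation p of 0.029 and an adjusted p of 0.1. All members but Ciita had gaps of 0.63 to 0.88 with that same p, the smallest that 4 against 4 can give. These 6 members correlate with each other and share that p, so they are not 6 separate results. Ptprc differed by only 0.03 there, and the gap of Cd74 is close to its log2 fold change of 0.81. The share of all genes that would pass relative to Ptprc or to a marker list was not computed. At 800 mm3, 48.4% of all genes did not overlap between the models. Relative to the macrophage list, 0 of 21 comparisons passed (adjusted p = 0.35 to 0.971), and Cd74 at 800 mm3 had a gap of 0.44 (exact permutation p = 0.171). The macrophage list was itself 0.38 higher in Colon 26 at 800 mm3 (exact permutation p = 0.057). Relative to the dendritic cell list, 6 comparisons passed, 5 at 800 mm3 and that of H2-DMa at 400 mm3. Genes of this list differed between the models in opposite directions. In culture 1 of the 3 tested was called higher and 1 lower in Colon 26, beside 22.9% of all genes called. Of 8 tested, 2 were called higher and 0 lower at 100 mm3, beside 13.2%. At 400 and at 800 mm3, 1 was higher and 1 lower, beside 14.3 and 14.1%. The gene called lower in culture and the gene called higher besides Zbtb46 at 100 mm3 are not named here. Zbtb46 was higher in Colon 26 in culture (log2 fold change 1.93) and in tumors of 100, 400 and 800 mm3 (1.10, 1.24 and 1.26), and was called each time. Xcr1, a marker of cross-presenting dendritic cells, was lower in Colon 26 at 400 and 800 mm3 (-2.0 and -1.15, both called) and had -1.58 at 100 mm3 (adjusted p = 0.131, not called). Flt3 had -0.94 at 800 mm3 (adjusted p = 0.0982, not called). The higher class II level in 800 mm3 Colon 26 tumors thus passed the test relative to Ptprc and to the dendritic cell list but not relative to the macrophage list, and the difference between these results was not tested. Without any 1 of the 8 tumors of 800 mm3, 0 comparisons passed relative to Ptprc, since 3 against 4 tumors cannot give an exact permutation p under 0.057.

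**Figure D4:**
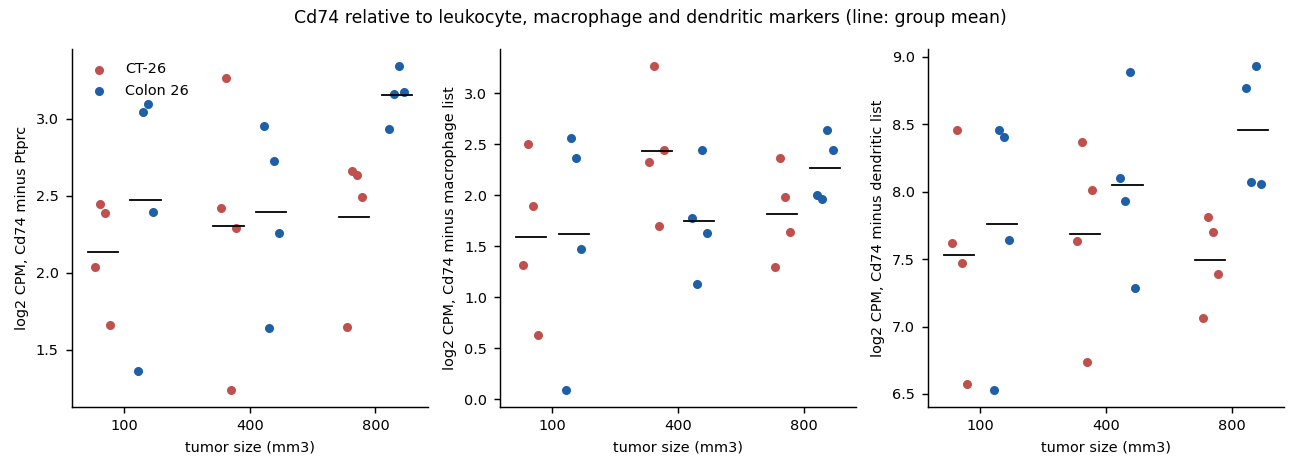
Cd74 relative to Ptprc, to the macrophage list and to the dendritic cell list (difference of log2 CPM) in the 24 tumors by model and size, with 1 point per tumor. At 800 mm3 the 4 Colon 26 tumors lie above the 4 CT-26 tumors relative to Ptprc (2.94 to 3.34 against 1.65 to 2.66) and overlap with them relative to the macrophage list.

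Among 36 other genes of the pathway, a few for processing and signaling were called between the models, in culture and in tumors. In culture 1 of 24 genes tested was higher and 4 were lower in Colon 26, beside 22.9% of all genes tested that were called, a count near that background. Rfx5, a subunit of the RFX complex, was higher by a log2 fold change of 1.5 ± 0.07 (SE, adjusted p = 3.25e-12), at 5.92 to 6.48 FPKM in Colon 26 and 1.99 to 2.29 FPKM in CT-26. The lower genes all encode endosomal proteases, Ctsl (-1.43), Ctsd (-1.52), Lgmn (-1.08) and Ctss (-3.11 ± 0.45 SE, adjusted p = 9.39e-06). Ctss, the cathepsin that cleaves the invariant chain in dendritic cells and B cells, was at only 0.369 to 0.483 FPKM in CT-26 cultures and at a mean of 288 FPKM in CT-26 tumors of 100 mm3. It ranged over 58.9 to 483 FPKM in the 24 tumors and correlated with the members at 0.863 to 0.956. Ctsl stayed lower in Colon 26 tumors at every size, with log2 fold changes of -1.10, -1.30 and -1.32.

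In tumors Irf1 and Ifng were called lower in Colon 26, each at 1 size. Irf1, which acts on the interferon-responsive promoter of Ciita, was lower in Colon 26 at 100 mm3 (-1.13 ± 0.44 SE, adjusted p = 0.0588). At 400 and 800 mm3 it had -0.95 ± 0.22 (SE, adjusted p = 0.00746) and -0.48 ± 0.18 (SE, adjusted p = 0.0461), under the minimum fold change and so not called. Ifng itself was lower at 400 mm3 (-1.61 ± 0.58 SE, adjusted p = 0.0493), with means of 1.53 FPKM in CT-26 and 0.522 FPKM in Colon 26. At 100 mm3 Ifng had -1.52 ± 0.80 (SE, adjusted p = 0.148) and at 800 mm3 -0.35 (adjusted p = 0.511). The kinase genes of the interferon-gamma receptor went opposite ways under the minimum fold change. Jak1 had 0.34, 0.27 and 0.49 at 100, 400 and 800 mm3 (adjusted p = 0.00977, 0.0138 and 4.37e-05), and Jak2 had -0.61, -0.84 and -0.58 (adjusted p = 0.000899, 3.34e-05 and 5.06e-05). The receptor chains had -0.08 to 0.02 for Ifngr1 and -0.03 to 0.14 for Ifngr2. At 400 mm3 Lag3, a T cell receptor for class II, was also lower (-1.82 ± 0.46 SE, adjusted p = 0.0115), while Rfxank, another RFX subunit, was higher (1.02 ± 0.15 SE). Of the pathway genes tested, 0 were higher and 2 lower of 34 at 100 mm3, beside 13.2% of all genes called in either direction. At 400 mm3, 1 was higher and 3 were lower of 34, beside 14.3%, and at 800 mm3 0 were higher and 1 lower of 35, beside 14.1%. These counts are no higher than the background and say nothing particular about the pathway. Marker lists of T and NK cells had lower means in Colon 26 at each size. The T cell list was lower by 0.83, 1.67 and 0.18 in mean log2 CPM at 100, 400 and 800 mm3 (exact permutation p = 0.43, 0.029 and 0.74). The NK cell list was lower by 1.88, 1.795 and 1.515 (exact permutation p = 0.029, 0.029 and 0.057). The part of T and NK cells in the lower Irf1 and Ifng was not tested.

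Ciita was set against Ifng and Irf1 in each tumor, by ratios of FPKM chosen after their values were seen and therefore given with no test. Ciita was 0.799 to 3.66 times Ifng (median 2.31) in the 12 CT-26 tumors and 2.93 to 12.9 times Ifng (median 5.12) in the 12 Colon 26 tumors. It was 0.0122 to 0.0478 times Irf1 (median 0.0278) in CT-26 and 0.0215 to 0.0692 times Irf1 (median 0.0498) in Colon 26. Both medians were higher in Colon 26, and both pairs of ranges overlapped over the 12 tumors of each model. Within a size, Ciita to Ifng did not overlap, at 0.799 to 2.36 in CT-26 and 3.68 to 12.9 in Colon 26 at 100 mm3. At 400 mm3 it was at 1.56 to 2.90 in CT-26 and 2.93 to 5.50 in Colon 26. At 800 mm3 it was at 2.39 to 3.66 in CT-26 and 3.905 to 9.02 in Colon 26. Ciita to Irf1 overlapped at 100 and 400 mm3, but not at 800 mm3. Of all genes, 47.3, 44.0 and 48.4% did not overlap in FPKM at these sizes.

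**Figure D5:**
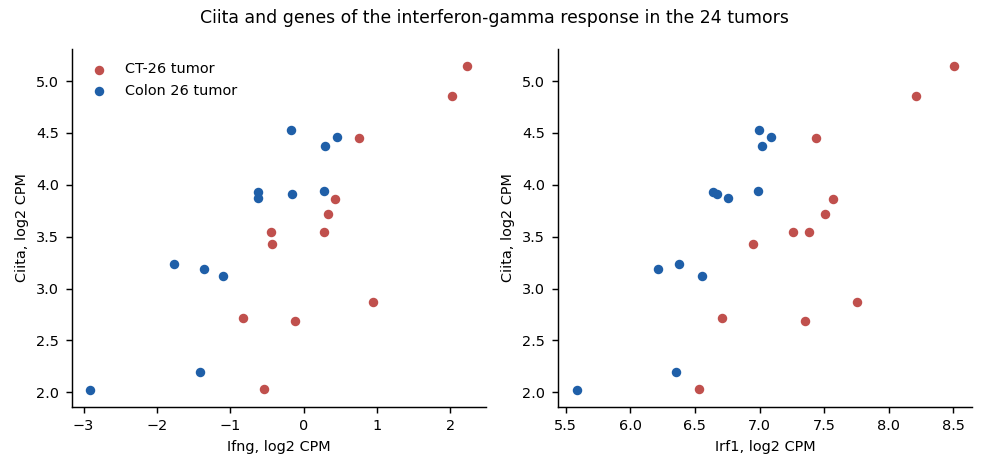
Ciita against Ifng and against Irf1 in the 24 tumors, in log2 CPM, with 1 point per tumor and color by model. Within each model the tumors with more Ifng or Irf1 tend to have more Ciita, and Irf1 spans 22.7 to 65.9 FPKM in Colon 26 and 43.7 to 167 FPKM in CT-26 tumors.

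From culture to 100 mm3 tumors, 18 pathway genes were higher and 2 lower in each model, of 33 tested in CT-26 and 34 in Colon 26. Of all genes tested, 22.2% and 20.8% were called higher. Besides Ctss the higher genes included Spi1, which encodes the myeloid factor PU.1 (6.81 in CT-26 and 9.06 in Colon 26), the costimulatory genes Cd86 and Cd40, and March1, whose product sends class II molecules for degradation (5.39 and 5.20). The receptor chains Ifngr1 and Ifngr2 were higher by 1.02 to 1.31 in both models. Cd80 was lower by -1.68 in CT-26 and -2.03 in Colon 26. H2-Oa and H2-Ob, the chains of the H2-DM inhibitor H2-DO found mainly in B cells, stayed at most at 0.729 and 0.457 FPKM in tumors.

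Genes were ranked by how closely their log2 level followed the mean of H2-Aa, H2-Ab1, H2-Eb1 and Cd74 over the 24 tumors. The ranking covered 13496 genes outside the 7 members. The nearest were H2-Ea-ps (Pearson's r = 0.990) and H2-DMb2 (0.981), both class II genes outside the 7, followed by Trpm2, Arl5c, Lair1, Slamf6, Cd52, H2-Q7, Neurl3 and Ccdc88b (0.908 to 0.870). The median gene was at -0.04. After group means were subtracted, H2-Ea-ps (0.990) and H2-DMb2 (0.989) again led, and Tlr12 (0.942), Dnase1l3 (0.936) and Ctss (0.925) came next. H2-Ea-ps is the gene of the I-E alpha chain, annotated as a polymorphic pseudogene because the C57BL/6 strain does not express it, whereas BALB/c mice do. It was at 15.2 to 199 FPKM in tumors, 0.635 to 0.900 times H2-Eb1, and at 0 in 5 of the 6 cultures. H2-DMb2, the neighboring paralog of H2-DMb1, was at 2.33 to 18.02 FPKM in tumors. The near-identical genes may have shared reads, and with their counts summed no call of H2-DMb1 changed.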

How the data were processed

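RNA-seq of poly-A RNA was analysed in 30 libraries, grouped by the labels into 8 groups of model and culture or tumor size. Array Studio was used by the authors to count paired reads on the genes of Ensembl release 78. They deposited estimated counts per gene, not normalized, of which 22.6% of those above 0 are not whole, and FPKM. The aligner, build and strand handling are not given in the sources used here, and the submitters' processing notes name DESeq2 1.24.0. No value column was left unused (0 columns). Estimated counts were rounded and each comparison fitted on its own libraries in edgeR 4.0.16 (R 4.3.3, limma 3.58.1), with TMM factors, filterByExpr, the quasi-likelihood test and Benjamini-Hochberg adjustment over all genes tested, although the design written for the tests spoke of counts. The thresholds were an adjusted p of 0.1 and an absolute log2 fold change of 1, and standard errors were derived from F. DESeq2 1.42.0 was an alternative. Exact permutation tests (two-sided, scipy 1.17.1) served for single values. CPM used TMM factors over 30 libraries, with a prior count of 2 on the log2 scale, and the log2 FPKM scale a pseudocount of 0.1. The floor was 3 counts per library and covers counting error only. Symbols and coordinates came from GENCODE M21 of GRCm38, which held 52207 of 53431 identifiers (97.7%). The edgeR step was tested on simulated data. Some genes were left out of the lists and are not reported here. The members, gene lists, named genes and tests were chosen with earlier results of these data known. Named genes are the members, the called genes of the pathway list, markers, and the 10 genes most like the mean of H2-Aa, H2-Ab1, H2-Eb1 and Cd74.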

Additional observations from a re-analysis of the deposited data

Results flagged for a closer look

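The difference of Cd74 between the models changed from culture to 100 mm3 tumors, by an interaction of 6.31 on the log2 scale in edgeR's quasi-likelihood test (SE 1.22, adjusted p = 0.000835). All 3 Colon 26 cultures lay below all 3 CT-26 cultures, and the 4 tumors of each model overlapped. Leaving out 1 library at a time gave interactions of 6.03 to 6.96. In each of the 42 combinations of member and tumor group, no tumor stood apart from the other 3 by Dixon's criterion (0 of 42, where chance gives about 1 in 20).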

How the results depend on the processing

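Of 265 counts of called members under alternative settings, 247 stayed within 1.5 times the reported count and 18 did not. The shares of all genes called under these settings are not given here, so the counts below stand without that background. Of 349 log2 fold changes of called members, 343 kept direction and call, 6 lost the call and 0 changed sign, and 25 of 25 ratios between members moved by less than their spread. In culture the 5 calls became 1 with at least 10 counts in every library, 3 with all 30 libraries in one fit and 1 with limma on log2(FPKM + 1), which shrinks low genes. For 800 mm3 tumors the 0 calls became 6 without a minimum fold change and 0 to 4 when 1 tumor was left out. The 7 calls of Colon 26 tumors over culture became 1 with at least 10 counts in every library, since the other genes were no longer tested. The single call of the model difference in tumors against culture became 4 with DESeq2, 3 without a filter, 0 with at least 10 counts in every library, 2 with all 30 libraries, 4 with limma on log2(FPKM + 0.1), and 1 to 2 when 1 library was left out. The 6 differences relative to Ptprc became 0 relative to the macrophage list and 0 to 6 when 1 tumor was left out, where 3 against 4 tumors cannot give an exact p under 0.057. Except where a setting removed genes or tumors, the cause was not tested. Among members not called, signs changed in up to 27 of 133 values per comparison, the most for 400 over 100 mm3 in CT-26. The spread of 4 tumors limits the precision in tumors, and low counts limit it in cultures. Correlations with tumor volume are not given, because the volumes fall into 3 clusters of 4 tumors per model. No paired analysis was possible because the labels carry no replicate numbers shared between groups.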
